A study of Mus musculus with 6 samples.

Results

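The 47 genes described here run the cell division cycle and copy DNA. They were taken from a list of named genes, not from any measured value. Of them, 9 license replication origins or restrain licensing, 4 make DNA or its building blocks, and 8 are cyclins. Another 5 are cyclin-dependent kinases or a phosphatase that activates one, 5 belong to chromosomes or centromeres, and 10 act in mitosis. Then 3 are E2f1 and the pocket-protein genes Rb1 and Rbl1, and 3 are inhibitors of cyclin-dependent kinases. All 47 had at least 1 probe on the array (63 probes in all), and 42 were among the 21473 genes tested. A probe entered the tests only if both arrays of some group carried the scanner flag for a signal well above background. The other 5 were Ccne2, Cdk6, Cdc25c, Aurkb and Cenpf, each with 1 probe. The first 4 of these were not well above background on any array. Cenpf, a kinetochore protein gene, was so on 1 of 2 control arrays and on no array labelled shTug1. On the log2 scale explained below it read −6.23 and −3.90 in control and −6.44 to −7.78 on the arrays labelled shTug1. No fold is given for Cenpf, as 1 of its control arrays was itself not well above background. Of the 42 genes tested, 36 were well above background on all 6 arrays, and 5 (Cdc6, Cdk2, Top2a, Cenpa and Kif11) passed the filter although no control array was well above background.

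The RNA came from cultured mouse podocytes (epithelial cells whose foot processes cover the capillaries of the glomerulus) made conditionally immortal with a temperature-sensitive SV40 T antigen and differentiated for 10 days after the shift to the higher temperature. All 3 groups carried this T antigen and a pGIPZ lentiviral hairpin: a scrambled one in shControl, and one against the long noncoding RNA Tug1 in shTug1 clone 2 and in shTug1 clone 3, with 2 arrays in each group. What sets clone 2 apart from clone 3, and whether the 2 replicates of a group are separate cultures, is not given by the labels, so p-values measure only the spread between these samples, which may be technical. Both control arrays lay on 1 slide, scanned once, and all 4 arrays labelled shTug1 on another, so for every comparison with control the slide and the hairpin cannot be told apart.

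The 6 one-colour arrays had between 58.2% and 68.0% of probes well above background and no saturated spot, and the 75th percentile of intensity was 324 and 363 in control against 569 to 1055 on the arrays labelled shTug1. The number of arrays, rather than a read depth, limits precision here. Levels are log2 of the processed signal minus that percentile. On this scale the median level over all genes tested was −1.09 and −1.26 on the control arrays and −1.28 to −1.32 on those labelled shTug1. The median of the log2 fold changes of single genes was further from 0, at −0.64 (−0.24 after quantile normalization), and values given relative to the median gene are set against that median fold change. For Tug1 itself, probe A_52_P599162, which every array measured well above background, gave −2.88 and −2.49 in shControl. It gave −1.86 and −1.88 under the clone 2 label, then −3.10 and −3.23 under the clone 3 label. It was therefore higher, not lower, on the arrays labelled clone 2. On those labelled clone 3 it lay below both controls, but the median gene was lower there too (log2 fold change −0.46), so this probe does not single out Tug1. A second Tug1 probe, well above background on 3 arrays, gave −6.21 and −6.38, −2.73 and −2.94, then −6.36 and −3.58, and another was well above background on none. The names "clone 2" and "clone 3" are used below as the labels give them. Of 16 podocyte markers, 13 were well above background on all 6 arrays. The summed signal of the list, each marker relative to the array's 75th percentile, was 123 and 141 in control against 66.2 to 76.4 on the arrays labelled shTug1. Actn4 made up 84.7 and 95.9 of it in control and 44.9 to 54.4 on the others. For the mean of both clones, 6 of the 14 markers tested fell and none rose (limma adjusted p under 0.05). Of all genes, 30.4% were called lower and 10.2% higher in that comparison. The median log2 fold change of these 14 was −0.34 relative to the median gene.

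The cell cycle is a chain of kinase switches. In G1, D-type cyclins with Cdk4 or Cdk6 phosphorylate the retinoblastoma family (Rb1, Rbl1), which then releases E2F factors to switch on the genes of S phase, while Mcm helicase subunits, loaded by Cdc6 and Cdt1, license each origin to fire once. Cyclin A, cyclin B and Cdk1 then drive mitosis, where Bub1, Bub1b and Mad2l1 hold the anaphase-promoting complex until chromosomes are attached, and Cdkn1b, Cdkn2a and Cdkn2c hold the kinases back. Podocytes in the kidney are normally out of the cycle and express the inhibitor p27, the product of Cdkn1b. The T antigen that lets podocyte lines grow binds both the retinoblastoma family and p53.

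Against control, 6 of the 42 genes rose (14.3%) and 7 fell (16.7%) for the mean of both clones, by limma at a Benjamini-Hochberg adjusted p under 0.05 over all genes. Over all 21473 genes tested, 10.2% were called higher and 30.4% lower. The D-type cyclin genes Ccnd1 and Ccnd2, the centromeric histone gene Cenpa, Top2a, the checkpoint kinase gene Bub1b and the licensing factor gene Cdc6 rose. Of these 6, Ccnd1 and Ccnd2 were well above background on all 6 arrays. The inhibitor genes Cdkn1b and Cdkn2a fell, as did Rbl1, Ccne1, Cdc20, E2f1 and Rrm2. The median log2 fold change of the 42 genes was −0.30, which is 0.34 above the median of all genes tested. Setting the 3 genes that were called higher from a dim control at their bound could not move this median, because all 3 stay above it either way. Set by array, the median level of the 42 genes stood above that of all genes tested by 2.73 and 2.31 in shControl, 1.65 and 1.97 in clone 2, then 2.16 and 2.295 in clone 3. By this measure all 4 arrays labelled shTug1 lay below both controls, the opposite direction to the median fold change set against all genes. On 10 of the 42 genes all 4 arrays labelled shTug1 lay above both controls (23.8%, against 12.3% of all genes), and on 13 all lay below (31%, against 43.1%). Bulk RNA cannot tell fewer cells in a phase of the cycle from less RNA per cell.

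**Figure D1:**
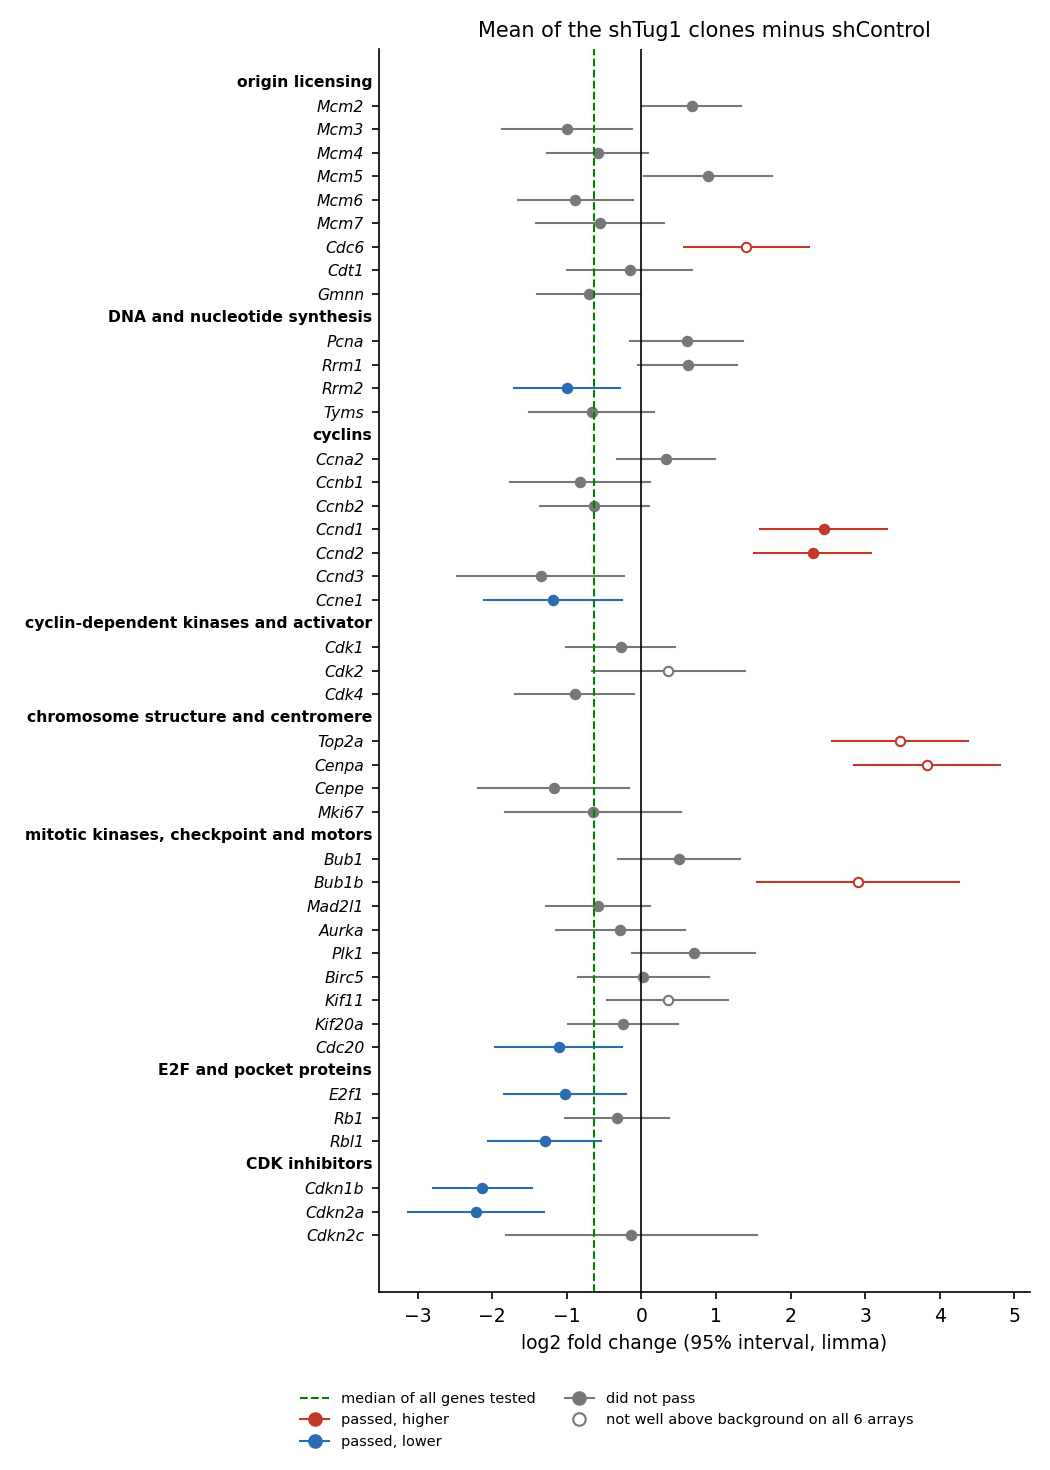
The log2 fold change of each of the 42 genes tested, mean of the 2 clones minus control, with its 95% interval from limma, grouped by role; the dashed line is the median of all genes tested (−0.64). Open circles were not well above background on all 6 arrays, and the points of Cenpa, Top2a and Cdc6 rest on controls that were not above background, so their size is not measured. Cenpa, Top2a, Bub1b, Ccnd1 and Ccnd2 lie farthest to the right, between 2.30 and 3.83, and Cdkn2a and Cdkn1b farthest to the left.

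Promoters were read for the genes that moved, since cell cycle genes are classically switched through E2F sites or through the pair of a CCAAT box and a cell cycle genes homology region (CHR). RefSeq promoters of build GRCm38.p6, each running from 250 bases before to 50 after the gene's start, were matched by symbol to 37 of the 47 genes. On both strands, the words searched were TTTCGCGC, TTTGGCGC, TTTCCCGC and TTTGCCGC for E2F, TTTGAA for the CHR, and CCAAT; no word contains another. An E2F word was in 10 of the 37 genes (27.0%) and in 2.6% of all 27025 genes with a promoter. TTTGAA was in 12 (32.4%, against 20.2%), CCAAT in 27 (73.0%, against 41.1%), and both in 1 promoter in 12 (32.4%, against 7.97%). The promoters below are printed because genes with the same kind of word moved in opposite directions. Cenpa (chr5:30666636-30666935, plus strand), Top2a (chr11:99024140-99024439, minus strand) and Bub1b (chr2:118597961-118598260, plus strand) rose, and Cdc20 (chr4:118437294-118437593, minus strand) fell; capitals mark TTTGAA and CCAAT on either strand. Cdc6 (chr11:98907901-98908200, plus strand) rose and Rbl1 (chr2:157204485-157204784, minus strand) fell; capitals mark the E2F word.
Cenpa: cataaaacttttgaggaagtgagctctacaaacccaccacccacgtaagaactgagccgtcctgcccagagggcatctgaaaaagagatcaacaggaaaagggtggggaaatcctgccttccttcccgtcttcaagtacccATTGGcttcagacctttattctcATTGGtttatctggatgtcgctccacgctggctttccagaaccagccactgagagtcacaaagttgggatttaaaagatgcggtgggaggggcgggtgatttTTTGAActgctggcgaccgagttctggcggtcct
Top2a: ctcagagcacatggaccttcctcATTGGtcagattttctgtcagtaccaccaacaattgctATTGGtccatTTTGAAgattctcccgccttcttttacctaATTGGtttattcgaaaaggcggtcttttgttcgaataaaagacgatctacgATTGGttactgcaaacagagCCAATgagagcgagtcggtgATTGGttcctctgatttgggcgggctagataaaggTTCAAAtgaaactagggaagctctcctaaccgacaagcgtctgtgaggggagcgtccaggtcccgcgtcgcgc
Bub1b: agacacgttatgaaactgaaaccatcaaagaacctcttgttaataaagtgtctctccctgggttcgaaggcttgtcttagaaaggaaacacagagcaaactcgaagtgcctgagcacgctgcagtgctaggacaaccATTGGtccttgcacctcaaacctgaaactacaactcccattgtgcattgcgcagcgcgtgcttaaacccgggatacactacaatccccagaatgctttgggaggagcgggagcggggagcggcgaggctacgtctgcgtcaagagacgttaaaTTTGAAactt
Cdc20: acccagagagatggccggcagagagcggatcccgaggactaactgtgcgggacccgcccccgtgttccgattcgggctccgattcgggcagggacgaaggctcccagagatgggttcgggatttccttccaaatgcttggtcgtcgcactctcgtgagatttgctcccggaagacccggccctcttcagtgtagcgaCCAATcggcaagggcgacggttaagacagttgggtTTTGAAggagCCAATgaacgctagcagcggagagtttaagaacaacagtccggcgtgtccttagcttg
Cdc6: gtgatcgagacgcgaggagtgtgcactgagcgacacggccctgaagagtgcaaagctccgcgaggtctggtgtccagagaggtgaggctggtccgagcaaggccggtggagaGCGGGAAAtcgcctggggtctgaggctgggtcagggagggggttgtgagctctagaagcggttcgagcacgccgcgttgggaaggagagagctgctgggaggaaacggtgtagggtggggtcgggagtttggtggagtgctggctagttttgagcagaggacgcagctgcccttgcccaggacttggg
Rbl1: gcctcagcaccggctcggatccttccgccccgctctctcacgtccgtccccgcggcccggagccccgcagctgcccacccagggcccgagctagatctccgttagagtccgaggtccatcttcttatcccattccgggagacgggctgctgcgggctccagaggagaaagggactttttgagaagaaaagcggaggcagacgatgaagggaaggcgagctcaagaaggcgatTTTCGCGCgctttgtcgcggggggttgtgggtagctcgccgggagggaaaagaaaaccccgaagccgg
Top2a held 2 TTTGAA and 6 CCAAT words, Cenpa 1 and 2, Bub1b 1 and 1, and Cdc20 1 and 2. Cdc6 and Rbl1 held 1 E2F word each. Of the genes called for the mean of the clones, 3 of 4 that rose and 1 of 7 that fell and had a promoter in the table held both TTTGAA and CCAAT. The 4 that rose were Cenpa, Top2a, Bub1b and Cdc6, as Ccnd1 and Ccnd2 had no promoter there. Only Bub1b among these 4 was well above background on a control array (1 of 2), while the 7 that fell were so on all 6 arrays. These counts therefore set genes near background in control against brighter ones, and no conclusion is drawn from them. A match is only a run of letters and was not tested as a binding site.

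Of the 9 licensing genes, 1 rose, none fell and 8 did not pass. Cdc6, the factor that loads the Mcm helicase with Cdt1, read −5.49 and −4.47 in shControl, −3.87 and −3.69 in clone 2, then −3.37 and −3.36 in clone 3. Neither control array was well above background, and all 4 arrays labelled shTug1 were above both. Cdc6 was at least 1.65-fold higher (fitted log2 difference 1.41, SE 0.36, limma adjusted p = 0.0227). This call ended without clone 3 replicate 1 (adjusted p = 0.0721) or replicate 2 (0.0854), the difference was 0.90 without shControl replicate 1, and with normexp background correction it turned to −0.32. A second Cdc6 probe, also dim in control, differed by 0.51 and did not pass (adjusted p = 0.215 over all probes).

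Mcm2, a subunit of the replicative helicase, read 1.07 and 1.30 in shControl, 1.36 and 1.56 in clone 2, then 2.21 and 2.31 in clone 3. All 4 arrays labelled shTug1 lay above both controls, but the difference of 0.68 (SE 0.29) did not pass (limma adjusted p = 0.0891). The other helicase subunits had differences of both signs, none past the threshold: 0.89 for Mcm5, −0.995 for Mcm3, −0.88 for Mcm6, −0.59 for Mcm4 and −0.55 for Mcm7. Cdt1, the other loading factor, differed by −0.16 and its inhibitor Gmnn by −0.71, and neither passed. Mcm6 passed in the comparison of clone 2 with control, where it read 3.03 and 3.01 against 4.61 and 3.79 in control (log2 fold change −1.18, SE 0.38, adjusted p = 0.0400). Clone 3 read 3.69 and 3.55, between the clone 2 arrays and control. Leaving out shControl replicate 2 was the one removal that kept the Mcm6 call. It also ended without either clone 3 array, although these arrays do not enter the difference between clone 2 and control.

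Among the 4 genes of DNA and nucleotide synthesis, Rrm2 fell and 3 did not pass. Rrm2, the regulated small subunit of ribonucleotide reductase, read 5.45 and 4.97 in shControl, 4.09 and 4.25 in clone 2, then 4.40 and 4.11 in clone 3. All 4 arrays labelled shTug1 lay below both controls (log2 fold change −0.996, SE 0.31, limma adjusted p = 0.0363), which is −0.36 relative to the median gene. Rrm1, the large subunit gene, read 1.71 and 1.78 in shControl, 2.00 and 1.97 in clone 2, then 2.90 and 2.59 in clone 3. All 4 lay above control, and the difference of 0.62 did not pass (adjusted p = 0.111). Pcna, the sliding clamp of the replication fork, read 2.02 and 2.79 in shControl, 3.05 and 3.07 in clone 2, then 3.02 and 2.91 in clone 3. Its arrays labelled shTug1 were all above control by a smaller margin than the 2 controls differed (difference 0.61, SE 0.33, adjusted p = 0.158). Tyms, thymidylate synthase, differed by −0.67 (adjusted p = 0.164).

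The calls of Rrm2, Ccne1, Cdc20 and E2f1 were each kept without shControl replicate 2 and ended with the removal of any other array. Such a removal leaves a group with 1 array and less information on the spread, so adjusted p can rise although the difference stays. An ended call therefore does not show that a fall rests on the array removed. Relative to the median gene their differences were −0.36, −0.55, −0.47 and −0.39. Without shControl replicate 1 the log2 fold changes were −0.76, −0.66, −0.69 and −0.58 for Rrm2, Ccne1, Cdc20 and E2f1 (adjusted p = 0.0699, 0.199, 0.173 and 0.134). Without clone 2 replicate 1 their adjusted p were 0.113, 0.0976, 0.0964 and 0.0964, and without clone 2 replicate 2 they were 0.0831, 0.0555, 0.0735 and 0.106. Without clone 3 replicate 1 they were 0.0937, 0.0807, 0.0779 and 0.103, and without clone 3 replicate 2 they were 0.137, 0.153, 0.157 and 0.162. After quantile normalization none of the 4 passed, at −0.17, −0.63, −0.49 and −0.84.

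Of the 7 cyclin genes tested, the D-type cyclins Ccnd1 and Ccnd2 rose, Ccne1 fell and 4 did not pass. Ccnd1, the main partner of Cdk4 and Cdk6 in G1, read 3.49 and 4.49 in shControl, 6.42 and 6.04 in clone 2, then 6.49 and 6.79 in clone 3. Every array labelled shTug1 lay well above both controls, and the difference was 2.44 (SE 0.37, a 5.43-fold rise, limma adjusted p = 0.00979). Ccnd2, a second D-type cyclin, read 1.12 and 2.00 in shControl, 3.88 and 3.89 in clone 2, then 3.83 and 3.82 in clone 3. The 4 arrays labelled shTug1 were nearly level with each other and all above control, and Ccnd2 was 4.92-fold higher (log2 2.30, SE 0.34, adjusted p = 0.00962). Both calls ended without clone 3 replicate 2, at adjusted p = 0.0532 for Ccnd1 and 0.0521 for Ccnd2, with differences of 2.37 and 2.30.

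The third D-type cyclin gave opposite answers from its 2 probes. The brighter Ccnd3 probe (A_55_P2041075) read 6.61 and 4.83 in shControl, 3.89 and 3.98 in clone 2, then 4.92 and 4.71 in clone 3. Its controls stood far apart and the lower one overlapped clone 3, and the difference of −1.35 did not pass (SE 0.48, limma adjusted p = 0.0568), although clone 2 on its own did (−1.79, adjusted p = 0.0360). The dimmer probe (A_51_P238448), designed to another RefSeq transcript, read −1.48 and −2.08 in shControl, 1.42 and 0.66 in clone 2, then 1.07 and 1.53 in clone 3, a difference of 2.96 that passed over all probes (adjusted p = 0.00660). The clone 2 call of the brighter probe ended without any 1 of the 4 arrays labelled shTug1, although those of clone 3 do not enter this difference. The difference was −0.90 without shControl replicate 1 and −2.68 without shControl replicate 2.

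Ccne1, the cyclin that partners Cdk2 at the entry to S phase, read 3.66 and 2.62 in shControl, 1.42 and 1.80 in clone 2, then 2.63 and 1.97 in clone 3. Clone 3 replicate 1 stood level with shControl replicate 2, so the groups overlapped although the gene passed (log2 fold change −1.18, SE 0.40, limma adjusted p = 0.0466). Ccnb1, the mitotic cyclin of Cdk1, read 2.14 and 0.86 in shControl, 0.25 and 0.65 in clone 2, then 0.88 and 0.93 in clone 3. The controls stood far apart and the lower one overlapped clone 3, and the difference of −0.82 did not pass (adjusted p = 0.131). A dimmer Ccnb1 probe (A_55_P1952256), not well above background in control, was at least 3.21-fold higher and passed over all probes (adjusted p = 0.0116). Ccnb2 differed by −0.63 and Ccna2, the S phase cyclin, by 0.33, and neither passed.

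None of the 3 cyclin-dependent kinase genes tested passed in the mean comparison. Cdk1, the kinase of mitotic entry, read 0.97 and 0.29 in shControl, 0.20 and 0.12 in clone 2, then 0.54 and 0.55 in clone 3, so control replicate 2 lay among the clones (difference −0.28, SE 0.32, limma adjusted p = 0.486). Cdk4, the G1 partner of the D-type cyclins, read 7.27 and 6.37 in shControl, 5.65 and 5.55 in clone 2, then 6.33 and 6.17 in clone 3. It lay below both controls on all 4 arrays, by a margin that did not pass for the mean (−0.90, SE 0.34, adjusted p = 0.0690) and passed for clone 2 (−1.22, adjusted p = 0.0404). Other Cdk4 probes disagreed with it. The next brightest differed by −0.06, and the dimmest (A_55_P2166639), well above background on all 6 arrays, read −0.85 and 0.53 in control against 2.50 to 3.09 on the arrays labelled shTug1, a difference of 2.90 that passed over all probes (adjusted p = 0.00954).

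The clone 2 call of Cdk4 survived the removal of shControl replicate 2 and of no other array. The other arrays include those of clone 3, which do not enter the difference between clone 2 and control. With quantile normalization that difference was 0.03, and with the mean of all 3 probes it was 0.38. Cdk2, the S phase kinase, was not well above background in control and read −4.51 and −4.87 there, −4.36 and −3.11 in clone 2, then −4.50 and −5.36 in clone 3. It was at least 1.49-fold higher in clone 2 than control, which did not pass (adjusted p = 0.149), and no fold is given for clone 3, which did not exceed the level that a dim control allows.

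Of 4 chromosome and centromere genes tested, Cenpa and Top2a rose and 2 did not pass. Cenpa, the histone variant that marks centromeres, read −6.39 and −4.96 in shControl, −1.85 and −1.63 in clone 2, then −1.98 and −1.91 in clone 3. The controls were not well above background, every array labelled shTug1 was, and Cenpa was at least 5.54-fold higher (fitted log2 3.83, SE 0.42, limma adjusted p = 0.00594). Top2a, the topoisomerase that untangles sister chromatids, read −6.31 and −6.43 in shControl, −2.65 and −2.45 in clone 2, then −3.87 and −2.63 in clone 3. It too was dim in control only, and was at least 2.66-fold higher (fitted log2 3.47, SE 0.39, adjusted p = 0.00594). Both entered the tests only through the arrays labelled shTug1, and the size of their fitted differences depends on control readings below background. With normexp background correction the fitted differences shrank to 0.95 for Cenpa, which still passed, and 0.33 for Top2a, which did not (adjusted p = 0.223). That setting adds 50 to every signal, which by itself narrows differences near background. The lowest level well above background was −4.13 and −4.50 on the control arrays and −5.39 to −5.91 on those labelled shTug1, and the part of this floor in the rises from a dim control was not tested.

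Mki67, the textbook marker of cycling cells, did not pass. Its brighter probe read 1.89 and 0.44 in shControl, 0.19 and 0.39 in clone 2, then 0.11 and 1.38 in clone 3, a difference of −0.65 (SE 0.51) within the spread of the replicates (limma adjusted p = 0.315). Its second probe differed by 0.62 and did not pass either (adjusted p = 0.245 over all probes). Cenpe, a kinetochore motor, lay below both controls on all 4 arrays labelled shTug1 but did not pass (−1.17, SE 0.44, adjusted p = 0.0629).

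**Figure D2:**
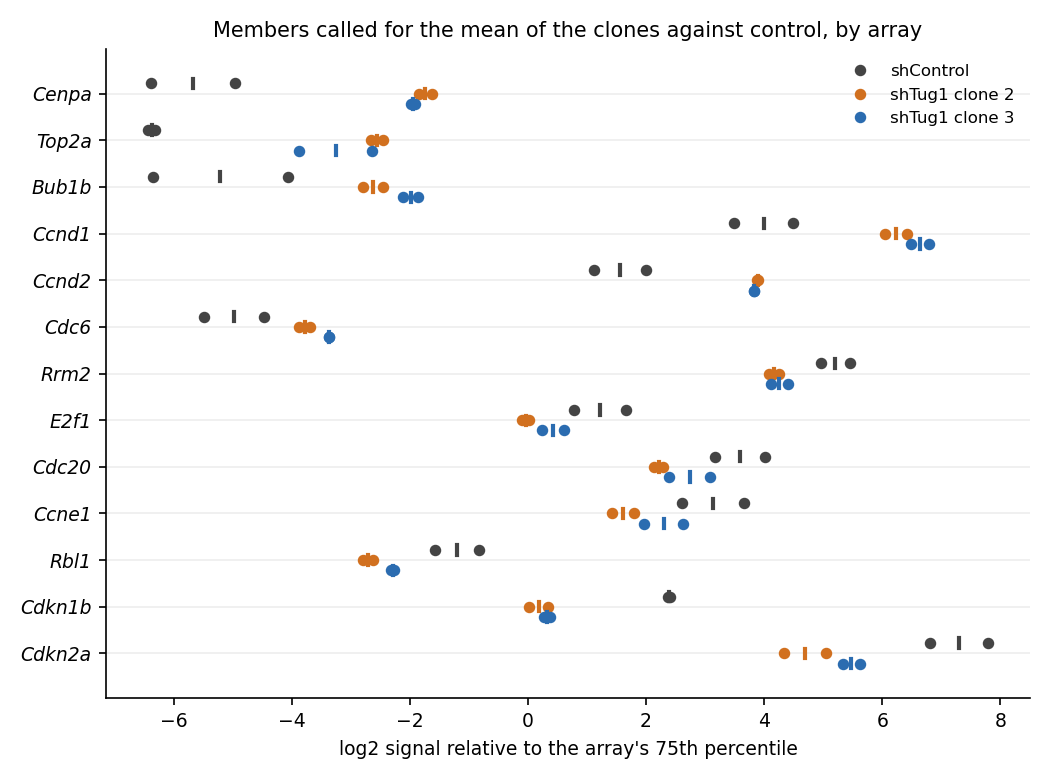
Levels of the 13 genes called between both clones together and control, as log2 signal relative to the array's 75th percentile, 1 point per array with a bar at each group's mean (n = 2 arrays a group). The 4 points of the clones lie to the right of both control points for the 6 genes called higher, and to the left for the genes called lower, except Ccne1, where clone 3 and control meet.

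Of 9 mitotic genes tested, Bub1b rose, Cdc20 fell and 7 did not pass. Bub1b, a checkpoint kinase that restrains the anaphase-promoting complex, read −6.36 and −4.07 in shControl, −2.80 and −2.46 in clone 2, then −1.86 and −2.11 in clone 3. Of its 2 control arrays 1 was well above background, the controls stood far apart, and all 4 arrays labelled shTug1 lay above both (log2 fold change 2.91, SE 0.58, limma adjusted p = 0.0151). The Bub1b call ended without clone 3 replicate 1 (adjusted p = 0.0513) or replicate 2 (0.0588) and with normexp correction (0.49, adjusted p = 0.0870), and the difference was 1.77 without shControl replicate 1. Cdc20, the activator that Bub1b restrains, read 4.01 and 3.17 in shControl, 2.14 and 2.29 in clone 2, then 3.09 and 2.39 in clone 3. Clone 3 replicate 1 came close to the lower control (−1.11, SE 0.37, adjusted p = 0.0456).

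The mitotic genes that did not pass ranged from −0.58 for the checkpoint gene Mad2l1 to 0.70 for the kinase gene Plk1. Bub1 differed by 0.50, Aurka by −0.28, the motor gene Kif20a by −0.25, and the brightest probe of Birc5, the survivin gene of the chromosomal passenger complex, by 0.03. Both dimmer Birc5 probes, not well above background in control, were higher and passed over all probes, at least 2.19-fold (adjusted p = 0.00575) and at least 1.60-fold (adjusted p = 0.00899). Kif11, the motor that separates spindle poles, was well above background on no control array, both clone 2 arrays and 1 clone 3 array. It read −5.59 and −5.08 in shControl, −4.56 and −3.92 in clone 2, then −5.97 and −5.48 in clone 3, which put clone 2 at least 1.05-fold above control without passing (adjusted p = 0.0576).

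E2f1 and Rbl1 fell and Rb1 did not pass. E2f1, an activator of S phase genes, read 1.66 and 0.77 in shControl, 0.02 and −0.10 in clone 2, then 0.61 and 0.24 in clone 3 (log2 fold change −1.02, SE 0.35, limma adjusted p = 0.0495). Clone 3 replicate 1 came close to the lower control. Rbl1, which encodes the pocket protein p107, read −0.83 and −1.58 in shControl, −2.62 and −2.80 in clone 2, then −2.31 and −2.27 in clone 3 (−1.30, SE 0.33, −0.66 relative to the median gene, adjusted p = 0.0219). All 4 arrays labelled shTug1 lay clearly below control, but the call ended without clone 3 replicate 1 (adjusted p = 0.0743) or replicate 2 (0.0853), and a second, dimmer Rbl1 probe differed by −0.54 without passing (adjusted p = 0.485 over all probes). Rb1 read 1.42 and 1.73 in shControl, 1.45 and 1.503 in clone 2, then 0.82 and 1.24 in clone 3, with clone 2 among the controls (−0.32, SE 0.30, adjusted p = 0.389).

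Of the 3 inhibitor genes, Cdkn1b and Cdkn2a fell and Cdkn2c did not pass. Cdkn1b, which encodes p27, read 2.40 and 2.38 in shControl, 0.34 and 0.02 in clone 2, then 0.37 and 0.27 in clone 3. The 2 controls were nearly equal and all 4 arrays labelled shTug1 lay well below, a 4.39-fold fall (log2 −2.14, SE 0.29, limma adjusted p = 0.00828), which is −1.498 relative to the median gene. Cdkn2a, which encodes p16 and p19Arf from 1 locus, read 7.79 and 6.81 in shControl, 4.33 and 5.05 in clone 2, then 5.62 and 5.33 in clone 3. Every array labelled shTug1 was below both controls, and the gene was 4.65-fold lower (−2.22, SE 0.39, −1.58 relative to the median gene, adjusted p = 0.0125; −1.24 after quantile normalization, which still passed).

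Both inhibitor calls ended without clone 3 replicate 2, at adjusted p = 0.0501 for Cdkn1b and 0.0578 for Cdkn2a, with differences of −2.11 and −2.14. A second, dimmer Cdkn2a probe differed by −1.17 and did not pass over all probes (adjusted p = 0.112). Both Cdkn2a probes are assigned to the same RefSeq transcript, and p16 and p19Arf were not told apart. Cdkn2c, which encodes p18, had controls of −2.61 and −0.01, clone 2 arrays of −0.26 and −0.53, and clone 3 arrays of −1.73 and −3.27. Its controls stood far apart, and the mean difference of −0.13 had an SE of 0.73 (adjusted p = 0.888).

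Probes of 1 gene often differed. Of the 42, 10 had more than 1 probe past the filter, and in 8 of them (80%) the brightest probe gave the lowest log2 fold change, against 65.3% of the 3471 genes with several probes. In 5 of the 10 (Ccnd3, Cdk4, Ccnb1, Mki67 and Mad2l1) probes had opposite signs, against 44.3% of those genes. The median range between probes of 1 gene was 1.16 on the log2 scale for the 10 genes and 1.06 for all. Ccnd1, Ccnd2, Cdkn1b, Cenpa, Top2a and Bub1b each had 1 probe, so no second probe bears on their values.

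**Figure D3:**
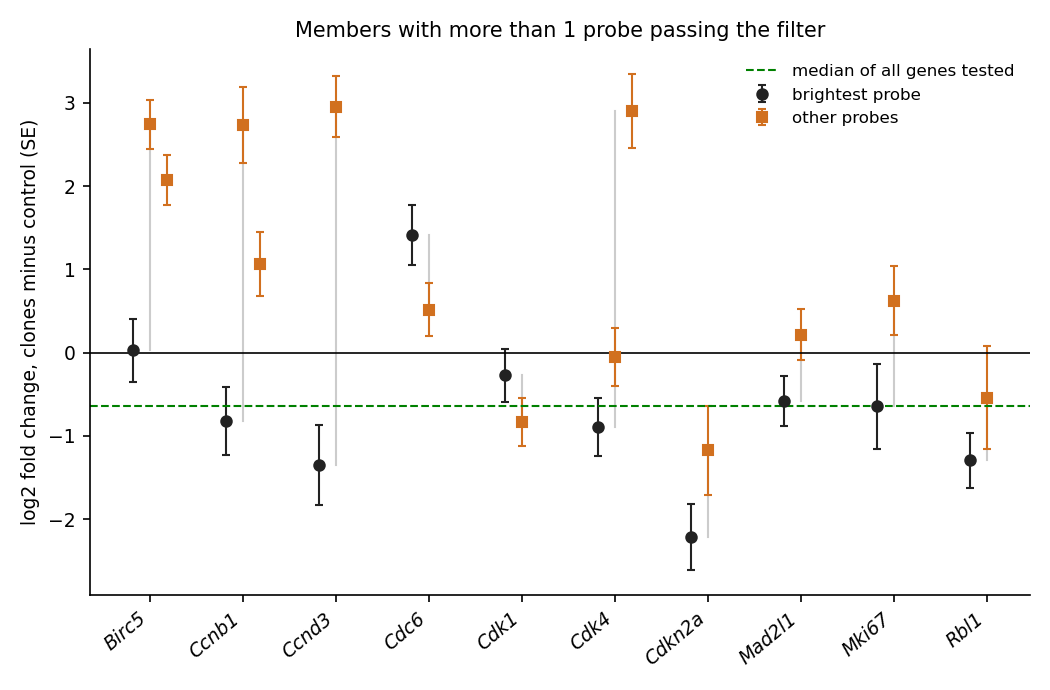
The log2 fold change of every probe past the filter, mean of the 2 clones minus control, for the 10 genes with more than 1 such probe; bars are standard errors from limma and the dashed line is the median of all genes tested (−0.64). The brightest probe (circle) lies below the others for 8 genes, and in Ccnd3, Cdk4, Ccnb1 and Birc5 a dimmer probe (square) stands far above it.

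The comparisons of clone 2 and of clone 3 with control share both control arrays, so their values are set side by side and their overlap is not a result. In clone 2, 6 genes rose (14.3%, against 10.2% of all genes) and 10 fell (23.8%, against 33.8%). In clone 3, 5 rose (11.9%, against 4.35%) and 2 fell (4.76%, against 4.68%). Cenpa was at least 5.95-fold higher in clone 2 and at least 5.16-fold higher in clone 3, and Top2a at least 3.39-fold and at least 2.09-fold, and both passed in each clone. The log2 fold changes in clone 2 and clone 3 were 2.59 and 3.23 for Bub1b, which passed in both. They were 2.24 and 2.65 for Ccnd1, 2.33 and 2.27 for Ccnd2, −2.21 and −2.06 for Cdkn1b, and −2.61 and −1.82 for Cdkn2a, also past the threshold in both. Cdc6 was at least 1.43-fold and at least 1.91-fold higher. The log2 fold changes were −1.504 and −1.09 for Rbl1, −1.53 and −0.84 for Ccne1, −1.37 and −0.84 for Cdc20, −1.26 and −0.79 for E2f1, and −1.04 and −0.95 for Rrm2. These 5 and Cdc6 passed in clone 2 and did not in clone 3, where adjusted p was 0.0516 for Cdc6 and 0.0919 for Rbl1, as did Mcm6, Ccnd3 and Cdk4 (−0.58, −0.91 and −0.57 in clone 3). None of these 9 genes differed past the threshold between the clones.

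These counts changed when single arrays were left out, which also leaves a group with 1 array. The arrays of clone 3 do not enter the difference between clone 2 and control. Leaving 1 of them out changes only the estimated spread and the adjustment of that comparison. With 1 array of clone 3 left out, none of the 42 genes, and none of all genes tested, passed in clone 3: the adjusted p of its 7 calls then lay between 0.151 and 0.298. Without shControl replicate 1 the Cdkn2a call of clone 3 ended (adjusted p = 0.0908), 4 of the 42 fell in clone 2 (against 25.3% of all genes in that fit) and 1 in clone 3 (3.39%). Without shControl replicate 2, 9 of the 42 rose and 19 fell for the mean of the clones, against 15.1% and 51.5% of all genes in the same fit. Clone 2 then had 10 and 20 (15.8% and 54% of all genes), and clone 3 had 10 and 13 (12.9% and 40.2%). The genes then added to the mean comparison were Mcm2, Pcna and Bub1 (higher) and Mcm3, Mcm4, Mcm6, Mcm7, Gmnn, Ccnb1, Ccnb2, Ccnd3, Cdk1, Cdk4, Mad2l1 and Aurka (lower). In clone 2, the calls of Ccnd1, Ccnd2, Cdkn1b and Cdkn2a, all measured on 6 arrays, were kept whichever array was removed. Those of Cdc6, Rrm2, Ccne1, Cdc20 and E2f1 were kept only without shControl replicate 2, with adjusted p from 0.0599 to 0.230 without each other array. The Rbl1 call of clone 2 ended without any 1 of the arrays labelled shTug1, of which those of clone 3 do not enter this difference. Without clone 2 replicate 1 or replicate 2, 3 genes fell for the mean (18.8% and 21.7% of all genes) and 2 in clone 2 (11.3% and 15.7%). Without clone 3 replicate 1, 4 rose and 2 fell for the mean (4.06% and 3.09% of all genes). Without clone 3 replicate 2, 2 rose (Top2a and Cenpa, both dim in control) and none fell (1.09% and 0.508%).

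Clone 3 against clone 2 is the one comparison made within a single slide, and none of the 42 genes passed in it (0.345% of all genes were called higher in clone 3 and 0.922% lower). At an unadjusted p under 0.05 limma gave 6 of the 42, 3 in each direction, against 11.9% of all genes, and the lowest adjusted p was 0.183, for Kif11. The median difference was 0.41 for the 42 genes and 0.38 for all genes tested. Both clone 3 arrays lay above both clone 2 arrays in 25 of the 42 (59.5%, against 58.9% of all genes) and below them in 8 (19%, against 16.4%). These shares lie close to those of all genes.

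The 6 genes below an unadjusted p of 0.05 were led by Kif11 (−1.48, 95% interval −2.41 to −0.55). Cdkn2c differed by −2.11 (−4.05 to −0.16) and Cdk2 by −1.20 (−2.38 to −0.01). Mcm7 was higher in clone 3 by 1.06 (0.07 to 2.05), with 3.00 and 3.00 in clone 2 against 4.09 and 4.01 in clone 3; Mcm2 by 0.79 (0.03 to 1.56) and Rrm1 by 0.77 (0.00 to 1.53). None of these passed over all genes. For the genes that rose or fell in both clones, the intervals of the difference between clones were −0.58 to 1.40 for Ccnd1, −0.97 to 0.84 for Ccnd2, −0.62 to 0.91 for Cdkn1b, −0.26 to 1.83 for Cdkn2a and −1.34 to 0.93 for Cenpa.

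**Figure D4:**
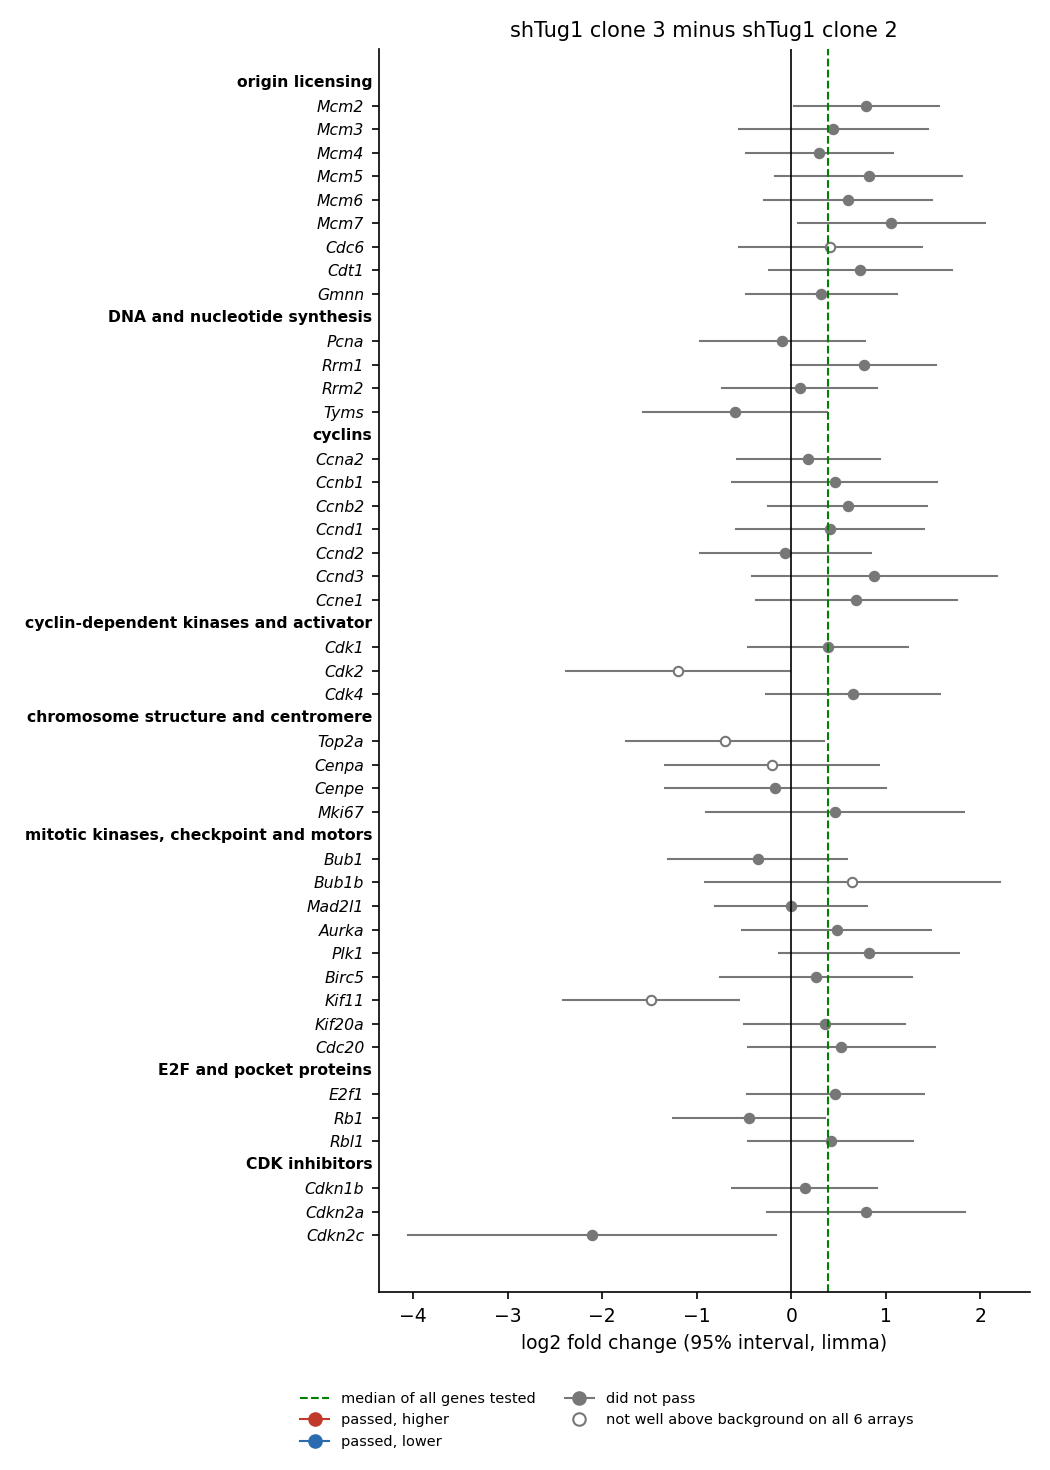
The log2 fold change of each of the 42 genes tested, clone 3 minus clone 2, with its 95% interval from limma, grouped by role; the dashed line is the median of all genes tested (0.38). No gene passed, and the points gather around the dashed line, with Cdkn2c, Kif11 and Cdk2 to its left.

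Other genes of the same processes were read from 3 further lists. Against the 10.2% and 30.4% of all genes, 12 of 44 other replication genes tested (48 listed) rose and 3 fell for the mean of the clones (median log2 fold change −0.27, 0.37 above the median gene). Among 48 other mitotic genes tested (50 listed), 19 rose and 4 fell (median 0.23, 0.86 above). Among 31 other regulators tested (33 listed), 9 rose and 8 fell (median −0.12, 0.52 above). As for Cenpa and Top2a, many of the rises started from a dim control: no control array was well above background for 3, 9 and 2 of the genes that rose, and 5, 7 and 5 were well above background on all 6 arrays.

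In the replication list the largest rises were Rfc3, a clamp loader subunit (2.57, well above background on 1 of 2 controls), and Chaf1a, a histone chaperone of the fork (2.51), by limma adjusted p = 0.0170 and 0.00981. The largest falls were Chaf1b, the partner of Chaf1a (−1.59), and Rfc4 (−1.40), whose second probe differed by 1.08. In the mitotic list Pbk, a mitotic kinase, was at least 4.31-fold and Nuf2, a kinetochore protein, at least 2.18-fold higher, both dim in control. Foxm1, which drives mitotic genes, fell by 1.56 on the log2 scale and Cdca5, the cohesin regulator sororin, by 1.49. Among the regulators Rbl2, the pocket protein p130, was at least 3.34-fold higher and dim in control. Cdk7, the kinase that activates other cyclin-dependent kinases, was 4.12 higher by a probe well above background on 1 of 2 controls and 0.81 lower by another. The inhibitor genes Cdkn2d and Cdkn1c fell by 1.69 and 1.56. Cdkn1c had a low level throughout, and was well above background on 1 of 2 controls and on every array labelled shTug1. It read −4.30 and −2.39 in control against −4.70 to −5.21 on the arrays labelled shTug1.

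The rises of Pbk, Nuf2 and Rbl2 rest on dim controls, and with normexp correction their fitted differences went from 3.86, 3.38 and 3.88 to 0.73, 0.44 and 0.62, where Nuf2 no longer passed (adjusted p = 0.102). With the same correction Rfc3 went to 0.73, Chaf1a to 1.36 and Cdk7 to 1.62, which still passed. After quantile normalization the falls of Chaf1b (−1.04, adjusted p = 0.0666), Rfc4 (−0.79, 0.0846), Cdca5 (−1.22, 0.0506) and Cdkn1c (−1.15, 0.236) did not pass. Chaf1b and Rfc4 did not pass in the deposited table either (adjusted p = 0.0505 and 0.0661), and Rfc4 was −0.16 with its probes averaged. Cdkn1c also ended with centring on the median gene (adjusted p = 0.0796) and with no filter (0.0539). Without clone 3 replicate 2 the calls of Rfc3 (adjusted p = 0.0674), Chaf1a (0.0536), Chaf1b (0.0990), Rfc4 (0.105), Foxm1 (0.0924), Cdca5 (0.101), Cdkn2d (0.0736) and Cdkn1c (0.107) ended. Without clone 3 replicate 1 those of Chaf1b (0.0707), Rfc4 (0.0866), Foxm1 (0.0792), Cdca5 (0.0783), Cdkn2d (0.0564) and Cdkn1c (0.112) ended. Without shControl replicate 1 the differences were −0.81 for Chaf1b, −0.70 for Rfc4 and −0.76 for Cdca5, none of which passed, and −0.79 for Foxm1, 1.55 for Rfc3 and −2.52 for Cdkn1c, which did. Cdkn1c also ended without shControl replicate 2 (−0.61) and without clone 2 replicate 2 (adjusted p = 0.0538), and Rfc4 was −2.10 without shControl replicate 2.

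Markers of other kidney and blood cells were lower in sum on the arrays labelled shTug1, but single genes made up much of each sum. The median gene tested was lower too (−0.64). Relative to it, the median log2 fold change of the markers tested was 0.005 for mesangial and fibroblast and −0.14 for immune markers. It was −0.205 for endothelial and −0.32 for tubular and parietal markers. The summed signal of 10 tubular and parietal markers was 327 and 174 in control against 45.4 to 83.0 on the arrays labelled shTug1, with 6 well above background on all 6 arrays and Slc12a1 on none. Of this, Cdh16 alone was 311 and 151 against 32.8 to 70.6, and the rest of the list summed to 16 and 23 against 10.3 to 12.8. For the immune list (8 of 9 on the array, 6 on all 6, Lyz2 on none) it was 29.9 and 14.4 against 3.65 to 5.80, and without Csf1r at least 7.87 against 2.62 to 3.96. Mesangial and fibroblast markers summed to 21.1 and 27.0 against 14.9 to 18.7 (6 of 10 on all 6 arrays, Pdgfra and Des on none), and without Pdgfrb to 7.31 and 8.62 against 6.84 to 10.7, which overlap. Endothelial markers summed to 6.41 and 6 against 2.81 to 3.55 (6 of 9 on all 6 arrays, Tek and Emcn on none), and without Ehd3 to 3.25 and 1.78 against 1.15 to 1.58. Of those tested for the mean of the clones, 3 of 8 tubular and parietal markers fell and 1 rose. In the other lists 2 of 7 immune, 2 of 7 mesangial and fibroblast and 3 of 6 endothelial markers fell. Of all genes tested, 30.4% were called lower and 10.2% higher in the same comparison, so these small counts set no list apart. The part of these markers in the values above, and that of the intensity scale and the slide, was not tested.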

How the data were processed

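RNA of 6 samples, 2 per group, was measured on one-colour Agilent arrays. The deposited scanner files hold a background-subtracted, detrended intensity per spot, written, per the file headers and the submitters' processing notes, by Agilent Feature Extraction 11.0.1.1. A table of log2 values deposited for the series, with 19819 probes, served as an alternative; no source used here gives its normalization.

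Values are log2 intensity minus the array's 75th percentile over gene spots, with outlier spots left out and spots of a probe averaged. A probe was kept if both arrays of some group were well above background (25544 of 39429), and each gene took its brightest probe. Symbols came from RefSeq by accession (27234 probes matched). limma 3.58.1 in R 4.3.3 fitted 3 group means, with 3 residual and 4.69 prior degrees of freedom, two-sided, with Benjamini-Hochberg adjustment over 21473 genes at 0.05. The fit was tested on simulated data. With 4 arrays against 2 an exact permutation test cannot give a p below 0.0667, so none was used.

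"At least N-fold" sets each dim array at its own signal or at the lowest signal that was well above background there, whichever is higher. A group is dim where none of its arrays was well above background. The genes given by array were those past the threshold in any comparison, those dim on 1 side, and Mki67, Ccnb1, Cdk1, Pcna, Mcm2, Cdk4 and Rb1; up to 2 genes per list and direction were named from the other lists. The genes, lists and tests were chosen with earlier results of these data known. Replicate numbers do not pair these samples. Alternatives were 2 other scalings, normexp correction (offset 50, on median spot signals, as mean signals were not used here), 2 filters, all probes, the deposited table, a replicate block and leaving out each array.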

Additional observations from a re-analysis of the deposited data

How the results depend on the processing

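Numbers of the 42 genes called higher and lower for the mean of the clones were 6 and 7, where 10.2% and 30.4% of all genes were called; the shares in brackets below are those of all genes in the same fit. They were 8 and 3 after quantile normalization (11.5% and 14.5%), 8 and 4 after centring on the median gene (10.7% and 27.6%), 7 and 15 with normexp correction (9.16% and 59.3%), 2 and 12 when all 6 arrays had to be well above background (8.63% and 39.5%), 6 and 4 with no filter (5.86% and 22.1%), and 5 and 3 from the deposited table (10.9% and 20.5%). In clone 2 (6 and 10) they were 6 and 3 after quantile normalization (10.4% and 15.5%), 2 and 12 with all 6 arrays (7.99% and 42.9%), 5 and 4 with no filter (5.88% and 23.2%), 7 and 6 with all probes averaged (11% and 30.7%), and 4 and 5 from the deposited table (9.74% and 22.1%). In clone 3 (5 and 2) the number lower was 1 with quantile normalization (3.23%), centring (4.04%), no filter (0.974%), all probes (4.33%) or the deposited table (6.53%) and 4 with normexp correction (25.2%), and 2 were higher with all 6 arrays (5.84%). The filter on all 6 arrays removes Cdc6, Top2a, Cenpa and Bub1b by construction. Normexp correction adds 50 to every signal before scaling. The 75th percentile of processed intensity was 324 and 363 in control against 569 to 1055 on the arrays labelled shTug1. Relative to that percentile, a signal near background is therefore raised more in control. Lower differences of dim genes under that setting are thus partly built in. The cause of the other shifts was not tested.

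Leaving out 1 array at a time gave 2 to 9 genes higher and 0 to 19 lower for the mean of the clones (1.09% to 15.1% and 0.508% to 51.5% of all genes), 5 to 10 and 2 to 20 in clone 2 (6.57% to 15.8% and 11.3% to 54%), and 0 to 10 and 0 to 13 in clone 3 (0 to 12.9% and 0 to 40.2%). No setting gave a call between the clones. The median of the 42 genes relative to all genes stayed between 0.11 and 0.42 for the mean of the clones, and between −0.05 and 0.10 between the clones.

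For the mean of the clones, 11 of the 42 genes turned sign under a setting other than leaving out an array, and 3 of these were called on one side. The median gene itself moved between settings, from −0.64 to −0.24 after quantile normalization. The share of all genes that turned is not given here. Neither this count nor that for leaving out an array therefore sets the 42 genes apart. Cdc6 turned with normexp correction (−0.32 for the mean, −0.50 in clone 2), Kif11 went from 0.35 to −0.72 with it (adjusted p = 0.0190, a call gained), and Ccnb1 went from −0.82 to 0.99 with all probes averaged (adjusted p = 0.0397, a call gained). With all probes Ccnd3 went from −1.35 to 0.80 and Cdk4 from −0.90 to 0.65, neither passing. Leaving out an array turned 7 genes, none called on either side. Signs also turned in clone 2 for Rrm2 (0.028 after quantile normalization, 0.027 from the deposited table), for Cdk4 (0.032, 0.032, and 0.38 with all probes averaged) and for Ccnd3 (0.52 with all probes). Cdk7 was −0.81 with all 6 arrays well above background and −0.53 from the deposited table, where another probe stands for it. Of the 13 calls for the mean of the clones, only that of Cenpa, whose control is dim, was kept in every setting that measured it.

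Replicate numbers did not pair the samples: same-numbered samples' deviations correlated at −0.04, 0.11 and −0.09. With the replicate block all 13 calls were kept, with 6 genes higher and 8 lower for the mean (10.5% and 30.1% of all genes), 7 and 9 in clone 2 (10.6% and 33.4%) and 6 and 2 in clone 3 (5.43% and 6.27%). Signal near background limits the dim genes, and 2 arrays per group limit the rest.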

Other observations

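Set against the median of all genes tested on the same array, the median level of the 3 inhibitor genes was 3.49 and 3.64 on the control arrays and 1.31 to 1.68 on the arrays labelled shTug1. On every array this median was the value of Cdkn1b, which lay between Cdkn2a and Cdkn2c, so it describes that gene and not the group. The median of the 4 genes of DNA and nucleotide synthesis was 2.95 and 3.54 against 3.80 to 4.27. The medians of E2f1, Rb1 and Rbl1 were 2.51 and 2.03 against 1.19 to 1.92. The middle gene here was Rb1 on shControl replicate 1 and E2f1 on every other array. The medians of the licensing, cyclin, kinase and mitotic groups overlapped between control and the arrays labelled shTug1. No median is given for the chromosome and centromere genes, since Cenpa and Top2a were not well above background in control. These are descriptions of few genes each, with no test.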
